A study of Mus musculus with 6 samples.

Results

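The genes described here encode the enzymes and carriers of the tricarboxylic acid (TCA) cycle, of the reactions that refill and drain it (anaplerosis and cataplerosis), and of the malate-aspartate shuttle. They are 30 named genes of 52550 in the count tables. All 30 were found by symbol and all 30 had enough reads to be tested among 14386 genes. Messenger RNA was counted in cardiomyocytes from mouse hearts of postnatal day 1 that were enriched by magnetic sorting, grown for 48 hours with serum and then kept for 24 hours without it. The 3 GR-cKO libraries came from mice with a deletion of the glucocorticoid receptor that is specific to cardiomyocytes, per the title of the study, and the 3 control libraries from control mice. All 6 libraries carry the same treatment label, control. The Cre line, the floxed allele, the strain and the genotype of the controls were not given in the sources used here. The sequencing method reads a tag near the 3′ end of each transcript, so counts do not grow with transcript length, and levels are given as CPM, the counts of a gene per 1000000 gene counts of its library, scaled between libraries.

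In the mitochondrial matrix the TCA cycle joins acetyl-CoA to oxaloacetate to form citrate and oxidises it step by step, passing electrons to the respiratory chain. Intermediates leave the cycle for synthesis, above all citrate, which the cytosol splits into acetyl-CoA for fatty acids and sterols, and they are replaced from pyruvate, glutamate and other amino acids. The malate-aspartate shuttle moves reducing equivalents from cytosolic NADH into mitochondria, and heart muscle relies on it more than on the glycerol phosphate shuttle.

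Of the 30 genes, the 10 grouped here under the cycle and the 7 of the shuttle did not pass the test in either direction. This grouping counts Mdh2 with the shuttle, Dld with pyruvate dehydrogenase and Idh2 with the NADPH-forming enzymes. Sdhb, a cycle gene outside the 30, rose (edgeR, adjusted p = 0.0381). Among the 30, the calls that were lower in GR-cKO were Acly, which uses exported citrate, and the NADPH-forming Idh1 and Idh2. The cataplerotic Pck2 was higher. Me1, another source of NADPH, did not pass, and the Idh2 call ended in 4 of 6 fits that left out a library. Of the 30 genes, 3 fell (Acly, Idh1 and Idh2) and 1 rose (Pck2) (edgeR quasi-likelihood test, adjusted p below 0.05 over all genes tested). The genes called make up 13.3% of the 30, beside 14.8% of all tested genes. The 3 that fell are 10.0% of the group, where 7.19% of all tested genes fell, and the 1 that rose is 3.33%, where 7.63% of all tested genes rose. These shares lie near those of the whole table, so the count of calls does not set the pathway apart. The median log2 fold change of the 30 genes was -0.03, beside -0.01 over all genes tested. Summed over the 30 genes, the GR-cKO libraries held 5078, 5090 and 5059 CPM and the control libraries 5074, 5068 and 5201 CPM, and these ranges overlap.

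The sequence before the transcription start is shown for the 3 called genes whose window held any of the letters searched, as context for what moved. Windows are the 250 bases before a RefSeq transcript start on GRCm38.p6, on the strand of the gene, 5′ to 3′, and capitals mark a match. Acly is taken from chr11:100528001-100528250 (minus strand), Idh1 from the window of its downstream start at chr1:65179143-65179392 (minus strand) and Pck2 from chr14:55540016-55540265 (plus strand).
Acly: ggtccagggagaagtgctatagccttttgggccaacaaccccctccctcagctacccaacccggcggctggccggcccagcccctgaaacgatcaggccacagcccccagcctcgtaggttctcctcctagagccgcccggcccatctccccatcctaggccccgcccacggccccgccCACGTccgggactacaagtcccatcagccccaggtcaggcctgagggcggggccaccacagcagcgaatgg
Idh1: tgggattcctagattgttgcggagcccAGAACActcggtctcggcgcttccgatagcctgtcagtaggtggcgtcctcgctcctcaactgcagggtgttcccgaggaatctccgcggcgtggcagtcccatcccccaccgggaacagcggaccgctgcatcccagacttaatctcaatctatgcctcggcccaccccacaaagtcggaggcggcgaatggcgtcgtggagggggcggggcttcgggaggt
Pck2: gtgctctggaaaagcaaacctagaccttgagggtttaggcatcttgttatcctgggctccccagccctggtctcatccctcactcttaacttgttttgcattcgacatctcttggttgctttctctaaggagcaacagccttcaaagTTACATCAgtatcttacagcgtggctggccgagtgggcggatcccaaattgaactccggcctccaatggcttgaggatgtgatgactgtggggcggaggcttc

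In Acly the capitals are the hypoxia response core ACGTG, read on the other strand, from 71 to 67 bases before the start. In Idh1 they are AGAACA, a single arm of the glucocorticoid response element, from 223 to 218 bases before that start, and the window of the other Idh1 start held none of the letters. In Pck2 they are the amino acid response element TGATGNAA, read on the other strand, from 103 to 96 bases before the start. The Idh2 window held no match. Both strands were searched for these letters, for the E-box CACGTG (which contains ACGTG), for the full glucocorticoid response element, which contains AGAACA, and for the sterol regulatory element TCACNCCAC. Windows were at hand for 28 of the 30 genes, 36 windows in all, and not for Idh3a and Me2. ACGTG stood in 13 of these windows, from 8 of the 28 genes since a gene can have several starts. That is 36.1% of the 36 windows, and 16.6% of all 32851 windows held it. The E-box stood in 16.7% (6 windows of 4 genes) and 6.02%, and AGAACA in 5.56% (2 windows of 2 genes) and 16.1%. TGATGNAA stood in 8.33% (3 windows of 3 genes) and 3.45%. These window counts are small, and the shares were not tested against each other. Neither the full glucocorticoid element nor the sterol element was found in the 36 windows, and they stood in 0.00913% and 1.05% of all windows. The marked letters also stood in windows of genes that were not called. TGATGNAA was found for Got1 and Me3, and AGAACA for Suclg1. ACGTG was found for Idh3g, Ogdh, Mdh1, Slc25a13, Slc25a1, Pcx and Me1. A match of letters is a description of the sequence and does not show that a factor binds there.

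The 3 falls were in the group of citrate export and NADPH formation, which holds 5 genes, while 7.19% of all tested genes fell. The plan had listed Acly and Idh1 in such a group but not Idh2, which was added to it as an NADPH-forming enzyme. That all 3 falls share a group thus depends on where Idh2 was placed, and their count within it is not read as a result. Acly, ATP-citrate lyase, cuts exported citrate into acetyl-CoA and oxaloacetate (ENSMUSG00000020917, chr11:100476353-100528000, minus strand, GRCm38). It stood at 90.6, 89.5 and 91.3 CPM in the GR-cKO libraries, against 138.5, 136 and 142 CPM in the control libraries. The groups lay far apart, and the libraries within each differed by only a few CPM. The means were 90.5 ± 0.936 CPM in GR-cKO and 139 ± 3.05 CPM in control (SD, n = 3 each), which is 1.53-fold lower in GR-cKO (log2 fold change -0.62 ± 0.07, SE; edgeR, adjusted p = 1.26e-06). Beside citrate synthase, which makes the citrate, the ratio of Acly to Cs was 0.460, 0.418 and 0.449 in the GR-cKO libraries and 0.714, 0.684 and 0.767 in the control libraries, a ratio chosen after its values were seen and not tested.

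Idh1, the cytosolic and peroxisomal isocitrate dehydrogenase, which yields NADPH, also fell (ENSMUSG00000025950, chr1:65158616-65186500, minus strand). Its levels were 106, 92.8 and 117 CPM in the GR-cKO libraries, against 129, 159.5 and 142 CPM in the control libraries. Every GR-cKO library lay below every control library, with a wider spread in each group than for Acly. The log2 fold change was -0.45 ± 0.09, a 1.37-fold lower level in GR-cKO (edgeR, adjusted p = 0.000804, n = 3 each). Idh2 is the mitochondrial NADPH-forming isocitrate dehydrogenase (ENSMUSG00000030541, chr7:80094846-80115392, minus strand). It stood at 350.0, 331 and 342 CPM in GR-cKO and at 380.1, 389 and 411 CPM in control. The groups did not overlap, but the fall was small, 1.15-fold (log2 fold change -0.21 ± 0.06, adjusted p = 0.0307). The Idh2 call ended in 4 of the 6 fits that left out a library, without GR-cKO replicate 2 or 3 or control replicate 2 or 3 (adjusted p = 0.0622 to 0.149), and with scaling by the ERCC spike-in RNAs (log2 fold change -0.11, adjusted p = 0.509). Over all its alternatives the adjusted p of Idh2 ran between 0.00909 and 0.509.

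The other enzymes of this edge did not pass. Slc25a1, the carrier that exports citrate from mitochondria, was at 51.5, 52.1 and 51.1 CPM in GR-cKO and 57.3, 50.5 and 56.1 CPM in control. Me1, the cytosolic malic enzyme, another source of NADPH, was at 69.0 ± 2.07 CPM in GR-cKO and 72.5 ± 8.50 CPM in control (SD, n = 3 each). The 95% intervals of their log2 fold changes, -0.27 to 0.10 and -0.26 to 0.12, include 0. Summed over Slc25a1, Acly, Idh1, Idh2 and Me1, the GR-cKO libraries held 667, 633 and 672 CPM, below the control libraries at 773, 802 and 833 CPM. This sum contains the called Acly, Idh1 and Idh2, so it restates their falls. Slc25a1 and Me1 each overlapped between the groups.

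**Figure D1:**
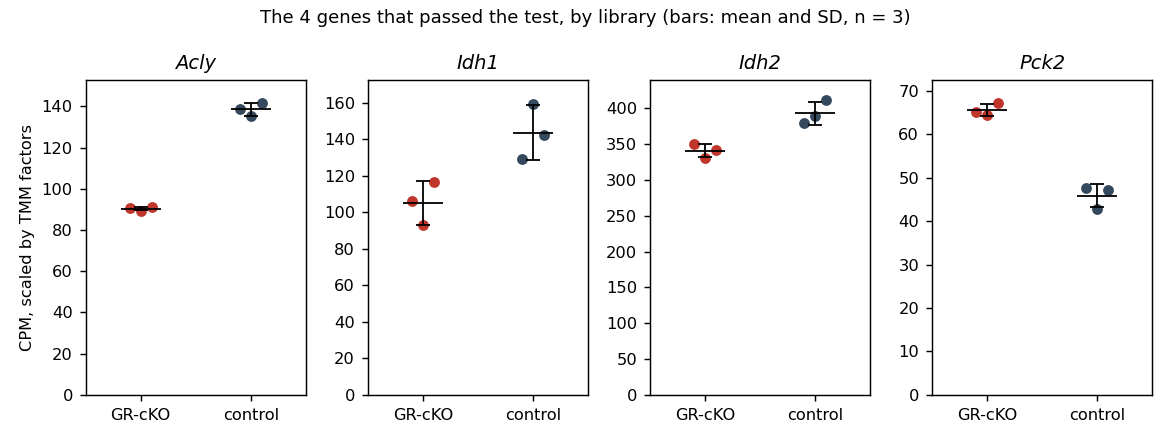
Levels of Acly, Idh1, Idh2 and Pck2 in CPM (vertical axes from 0), with GR-cKO on the left of each panel and control on the right. Points are libraries and bars are the mean and SD of 3. Acly sits near 91 CPM in GR-cKO and near 139 CPM in control, and Pck2 is the 1 gene of the 4 that is higher in GR-cKO.

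Among the enzymes that feed and drain the cycle, Pck2 rose. It encodes the mitochondrial phosphoenolpyruvate carboxykinase, which draws oxaloacetate from the cycle to make phosphoenolpyruvate (ENSMUSG00000040618, chr14:55540266-55551242, plus strand). The GR-cKO libraries stood at 65.2, 64.4 and 67.3 CPM, against 47.7, 42.8 and 47.2 CPM in the control libraries. The groups were well separated and the GR-cKO libraries lay within a few CPM of each other. Pck2 was 1.43-fold higher in GR-cKO (log2 fold change 0.52 ± 0.09, SE, n = 3 each; edgeR, adjusted p = 0.000157). Of 6 protein-coding ends of Pck2 in the annotation, 1 holds a stretch at least 95% identical to transcripts of 19 other genes, so reads at that end are uncertain. Pcx, pyruvate carboxylase, which refills oxaloacetate from pyruvate, was scarce at 10.5 ± 0.847 CPM in GR-cKO and 8.82 ± 1.26 CPM in control (SD, n = 3 each) and did not pass (adjusted p = 0.421). The ratio of Pck2 to Pcx was 5.89, 5.90 and 7.06 in GR-cKO and 4.85, 5.78 and 5.11 in control, chosen after the values were seen and not tested.

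The mitochondrial malic enzymes and glutamate dehydrogenase did not pass. Me3 had the log2 fold change farthest from 0 of the genes that were not called, at 9.76, 10.2 and 5.92 CPM in GR-cKO and 10.5, 13.2 and 12.4 CPM in control. Its groups did not overlap, though GR-cKO replicate 2 and control replicate 1 nearly met, and its log2 fold change of -0.48 had a 95% interval of -0.89 to -0.07 (adjusted p = 0.116). Me2 was at 10.3 ± 1.02 CPM in GR-cKO and 11.3 ± 2.40 CPM in control (n = 3 each). Glud1, which turns glutamate into 2-oxoglutarate, was at 213, 191 and 220.1 CPM in GR-cKO and 198, 222 and 246 CPM in control, with much overlap. Me2, Me3 and Pcx were the 3 genes below 20 CPM in every library, and their intervals are the widest of the 30.

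**Figure D2:**
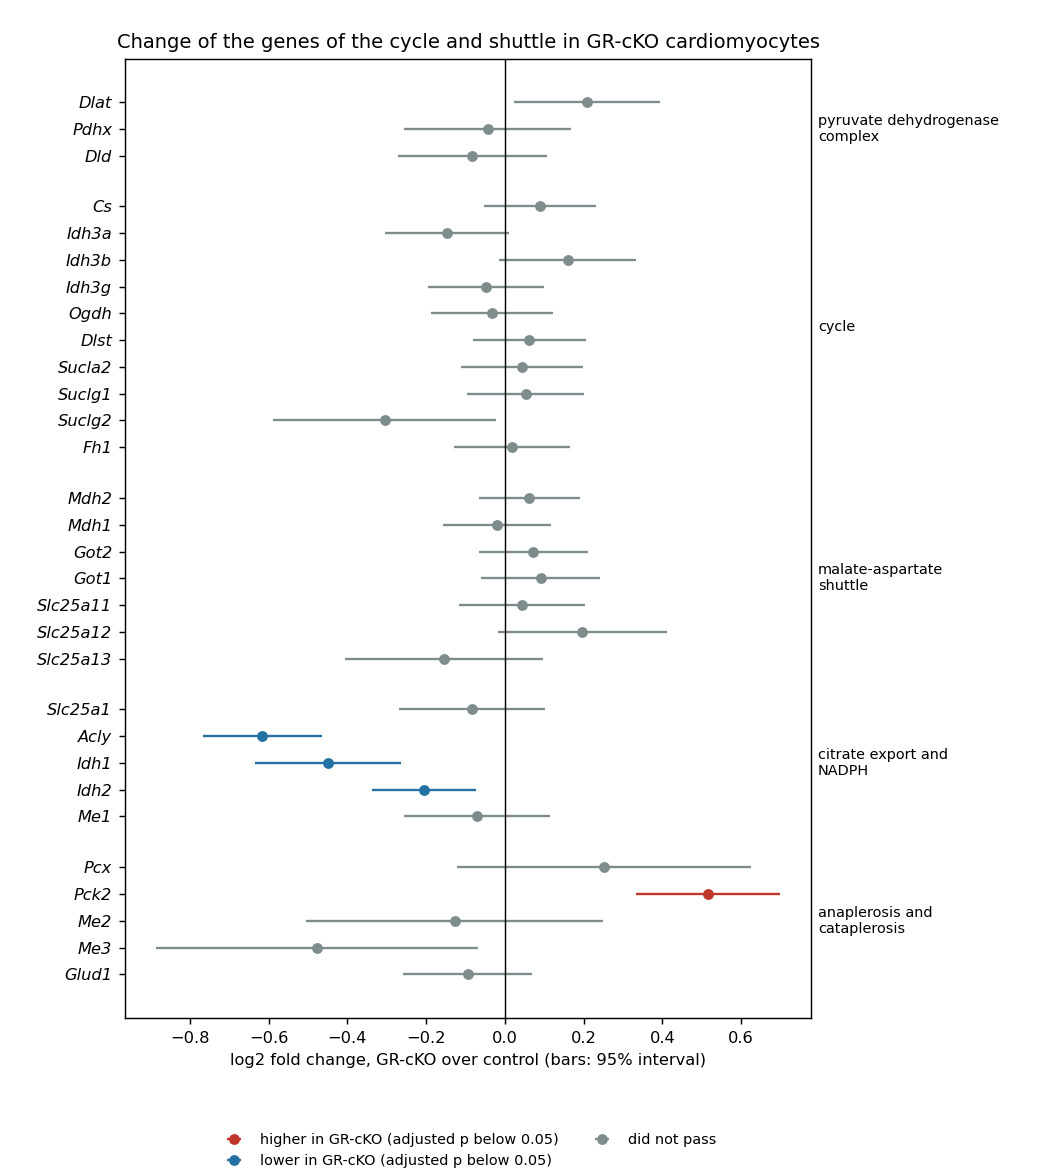
Log2 fold change of each of the 30 genes, GR-cKO over control (horizontal axis), grouped by role, with 95% intervals from the edgeR fit. Blue points (Acly, Idh1, Idh2) fell, the red point (Pck2) rose, and the 26 grey points did not pass, with values between -0.48 and 0.25.

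None of the 10 genes grouped here under the cycle passed the test (Cs, Idh3a, Idh3b, Idh3g, Ogdh, Dlst, Sucla2, Suclg1, Suclg2 and Fh1), with a median log2 fold change of 0.03, and only Suclg2 had an unadjusted p below 0.05 in edgeR. DESeq2 also called 0 of them. Summed over the 10 genes, the GR-cKO libraries held 1533, 1588 and 1601 CPM and the control libraries 1541, 1552 and 1561 CPM. Cs, citrate synthase, stood at 197, 214 and 203 CPM in GR-cKO and 194, 198 and 185 CPM in control, with a 95% interval of -0.05 to 0.23. Fh1, fumarase, was at 161 ± 10.6 CPM in GR-cKO and 159 ± 1.02 CPM in control (SD, n = 3 each), with an interval of -0.13 to 0.17.

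The NAD-dependent isocitrate dehydrogenase, which carries the flux of the cycle, is built of 3 kinds of subunit. Idh3a, the catalytic subunit, stood at 100.1, 116 and 111 CPM in GR-cKO and 121, 119 and 121.5 CPM in control. These groups did not overlap, but the gap between them was small beside the spread of GR-cKO, and the gene did not pass (log2 fold change -0.15, 95% interval -0.31 to 0.01, adjusted p = 0.236). Idh3b leaned the other way, at 104, 128 and 128 CPM in GR-cKO and 104, 109 and 109 CPM in control, and did not pass (adjusted p = 0.241). It did pass without GR-cKO replicate 1 (log2 fold change 0.26, adjusted p = 0.0478), and over its alternatives the adjusted p ran between 0.0478 and 0.579. Nop56 overlaps the 3′ end of Idh3b on the opposite strand, and whether the counting used strand was not given in the sources used here. Idh3g, on chromosome X, was at 203 ± 14.0 CPM in GR-cKO and 209 ± 7.74 CPM in control (n = 3 each). The summed level of Idh1 and Idh2 over that of the 3 Idh3 genes was 1.10, 0.930 and 1.08 in GR-cKO and 1.20, 1.24 and 1.24 in control, a ratio chosen after the values were seen and not tested.

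The 2-oxoglutarate dehydrogenase complex and the pyruvate dehydrogenase complex share the subunit Dld. Ogdh, the decarboxylating enzyme of the 2-oxoglutarate complex, stood at 158, 161 and 152 CPM in GR-cKO and 177, 155 and 150.2 CPM in control. Dlst, which carries the succinyl group, was at 226 ± 12.7 CPM in GR-cKO and 217 ± 8.32 CPM in control (SD, n = 3 each), and Dld at 64.5 ± 3.80 CPM in GR-cKO and 68.3 ± 6.94 CPM in control. In the pyruvate complex, Dlat, the acetyltransferase core was at 83.7, 82.5 and 103 CPM in GR-cKO and 80.0, 73.4 and 79.5 CPM in control. GR-cKO replicate 3 stood above the rest, and the log2 fold change of 0.21 had an unadjusted p of 0.0294 and did not pass over all genes (edgeR, n = 3 each, adjusted p = 0.133). Pdhx, which anchors Dld in that complex, was at 46.1 ± 6.18 CPM in GR-cKO and 47.5 ± 2.80 CPM in control (n = 3 each).

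Succinyl-CoA synthetase pairs the shared subunit Suclg1 with Sucla2, which makes ATP, or Suclg2, which makes GTP. Suclg2 stood at 16.1, 15.7 and 21.2 CPM in GR-cKO and 22.2, 21.6 and 21.6 CPM in control. The groups did not overlap, but GR-cKO replicate 3 lay close to the controls. Its log2 fold change was -0.31 (95% interval -0.59 to -0.02) and did not pass (adjusted p = 0.152), while without that library it passed (-0.45, adjusted p = 0.0366). Over its alternatives the adjusted p of Suclg2 ran between 0.0366 and 0.429. Sucla2 was at 163, 138 and 148 CPM in GR-cKO and 139, 149.5 and 147 CPM in control, and Suclg1 at 226 ± 15.7 CPM in GR-cKO and 218 ± 11.4 CPM in control (SD, n = 3 each).

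**Figure D3:**
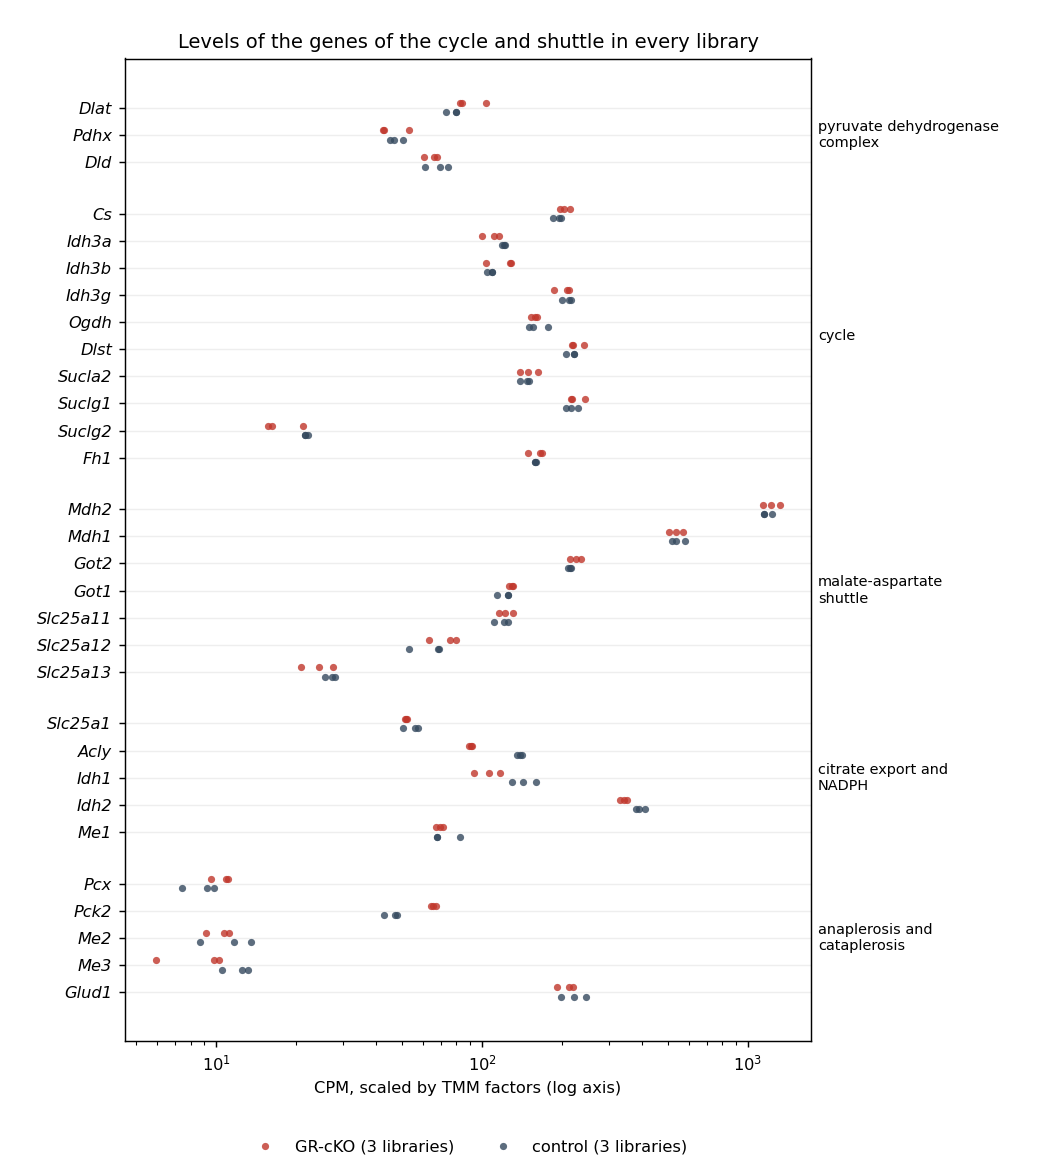
CPM of the 30 genes in each library on a log axis, grouped by role, with GR-cKO points above control points for each gene. Mdh2 and Mdh1 are the most abundant, 16 genes exceed 100 CPM in every library, and the points of both groups overlap for most genes.

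The malate-aspartate shuttle held no call among its 7 genes, with a median log2 fold change of 0.06. In edgeR 0 of the 7 had an unadjusted p below 0.05, and DESeq2 called 0. Mdh2, the mitochondrial malate dehydrogenase, which is also the last enzyme of the cycle, was the most abundant of the 30 genes at 1322, 1225 and 1144 CPM in GR-cKO and 1151, 1152 and 1230.1 CPM in control. Mdh1, its cytosolic counterpart, stood at 504.5, 572 and 536 CPM in GR-cKO and 579, 536 and 520.4 CPM in control. The groups overlapped for both, and the 95% intervals of the log2 fold changes were -0.07 to 0.19 for Mdh2 and -0.16 to 0.12 for Mdh1. The aspartate aminotransferases also did not pass. Got1, the cytosolic form, was at 127, 130.1 and 130.2 CPM in GR-cKO and 125, 125 and 114 CPM in control, narrowly without overlap (adjusted p = 0.489). Got2, the mitochondrial form, was at 225 ± 10.8 CPM in GR-cKO and 214 ± 2.94 CPM in control (SD, n = 3 each).

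The carriers of the shuttle were less abundant. Slc25a11, which exchanges malate for 2-oxoglutarate, was at 123 ± 7.62 CPM in GR-cKO and 119 ± 6.87 CPM in control (SD, n = 3 each). Slc25a12 (aralar) and Slc25a13 (citrin) are alternative carriers that exchange aspartate for glutamate. Slc25a12 stood at 63.1, 75.7 and 79.7 CPM in GR-cKO and 68.2, 53.3 and 69.0 CPM in control, with overlap and an interval of -0.02 to 0.41. Slc25a13 stood at 24.4, 27.4 and 20.9 CPM in GR-cKO and 27.2, 25.7 and 28.0 CPM in control, also with overlap.

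The balance between related forms was compared within libraries, so that scaling enters only through the 0.5 CPM added to each level. Of 6 pairs none differed past the threshold, and with 3 libraries against 3 the exact permutation test cannot give a two-sided p below 0.1. The log2 ratio of Slc25a13 to Slc25a12 was -1.36, -1.45 and -1.91 in GR-cKO and -1.31, -1.04 and -1.29 in control. These groups did not overlap (difference -0.36 ± 0.19, SE, n = 3 each; exact permutation p = 0.1, adjusted over the pairs 0.3). The log2 ratio of Suclg2 to Sucla2 was -3.30, -3.10 and -2.78 in GR-cKO and -2.62, -2.76 and -2.74 in control, a difference of -0.35 ± 0.16 (n = 3 each; exact permutation p = 0.1, adjusted 0.3), and GR-cKO replicate 3 lay next to the controls. For Idh1 to Idh2 the difference was -0.24 ± 0.12 (exact permutation p = 0.2), and the groups overlapped. No pair could pass with so few libraries, so the test cannot decide whether Idh1 fell more than Idh2. The cytosolic to mitochondrial ratios of the shuttle enzymes differed by 0.02 ± 0.04 for Got1 to Got2 (exact p = 0.6) and by -0.08 ± 0.12 for Mdh1 to Mdh2 (exact p = 0.7), and Me1 to Me2 differed by 0.04 ± 0.29 (exact p = 0.9).

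**Figure D4:**
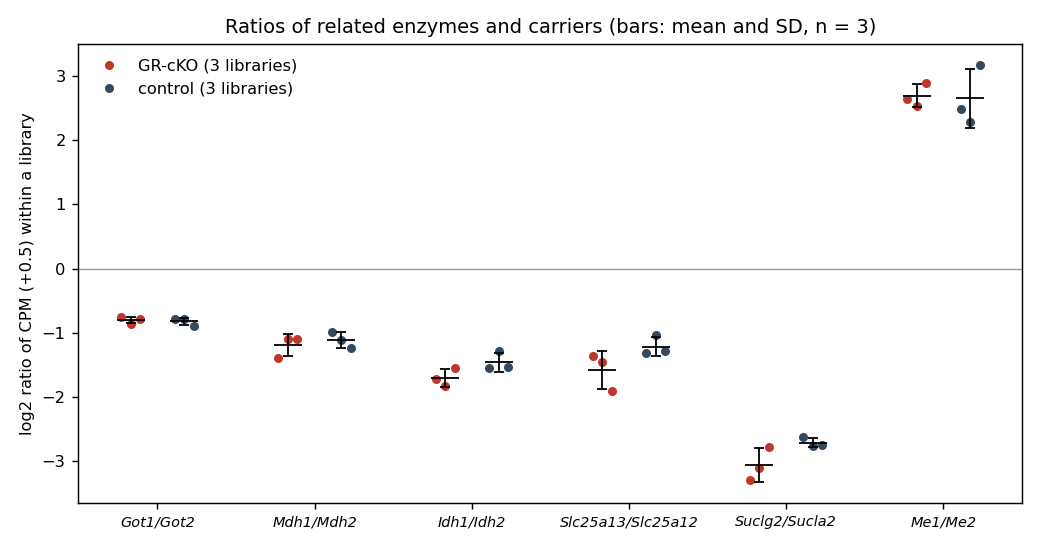
Log2 ratio of the CPM (plus 0.5) of 2 related genes within each library (vertical axis) for 6 pairs, GR-cKO left of control, with the mean and SD of 3 libraries. Only Slc25a13/Slc25a12 and Suclg2/Sucla2 have groups that do not overlap.

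The 26 genes that did not pass split evenly, with 13 log2 fold changes above 0 and 13 below. For 23 of them the 95% interval lay within a 1.5-fold change in either direction. Those not within 1.5-fold were Pcx, Me3 and Suclg2. The groups did not overlap for 9 of the 30 genes, a share close to the 29.9% of all genes tested. Besides the 4 called genes these were Idh3a, Suclg2, Got1, Me3 and Dlat.

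A list of 45 neighbouring genes held 7 calls, 17.5% of those tested, among regulators of pyruvate entry, enzymes of glutamine and alanine, succinate dehydrogenase, ketone use and a carrier. The list covers the rest of the cycle, the pyruvate gate, entry of glutamine, propionate, ketone and GABA carbon, the glycerol phosphate shuttle and related carriers. Of the 45, 40 could be tested, of which 5 rose and 2 fell, 12.5% and 5.0%, beside 7.63% and 7.19% of all tested genes. Of the 5 not tested, Pck1, Slc25a18, Slc25a21 and Ogdhl are listed at 0 in every library and Adhfe1 had at most 11 counts. The median log2 fold change of the 40 was -0.02.

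Pdk1, a kinase that switches off pyruvate dehydrogenase, was at 111, 101 and 96.3 CPM in GR-cKO, against 35.4, 34.2 and 42.1 CPM in control, and was the largest change of the 40 (log2 fold change 1.46 ± 0.09, edgeR, n = 3 each, adjusted p = 6.58e-11). Its relative Pdk3, on chromosome X, was at 81.2, 78.3 and 71.2 CPM in GR-cKO and 54.6, 66.6 and 64.9 CPM in control (0.31 ± 0.09, adjusted p = 0.0222). Pdk2 and Pdk4 did not pass, nor did the subunits Pdha1 and Pdhb or the pyruvate carriers Mpc1 and Mpc2. Glul, glutamine synthetase, was at 194, 182 and 190.4 CPM in GR-cKO and 140, 143 and 166 CPM in control (0.34 ± 0.08, adjusted p = 0.00262). Gpt2, the mitochondrial alanine aminotransferase, which links pyruvate and glutamate to 2-oxoglutarate, was at 15.6, 10.8 and 16.0 CPM in GR-cKO and 9.73, 7.97 and 10.2 CPM in control (0.60 ± 0.18, adjusted p = 0.0233).

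Within the cycle proper, Sdhb, the iron-sulphur subunit of succinate dehydrogenase, was at 363, 401 and 392 CPM in GR-cKO and 328, 341 and 337 CPM in control (log2 fold change 0.20 ± 0.06, edgeR, n = 3 each, adjusted p = 0.0381). Sdha, Sdhc and Sdhd did not pass. Acat1, the mitochondrial acetoacetyl-CoA thiolase of ketone use, fell to 85.2, 81.6 and 98.2 CPM in GR-cKO, against 109, 121 and 116 CPM in control (-0.39 ± 0.08, adjusted p = 0.0018). Slc25a10, the dicarboxylate carrier, was at 7.77, 10.8 and 12.7 CPM in GR-cKO and 16.2, 17.1 and 14.1 CPM in control (-0.60 ± 0.17, adjusted p = 0.0198).

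Several of these calls ended when a single library was left out. The Sdhb call ended in 5 of 6 fits that left out a library (all but the fit without GR-cKO replicate 1; adjusted p = 0.0743 to 0.179). The Pdk3 call ended without GR-cKO replicate 1 or 2 or control replicate 1 (adjusted p = 0.0825 to 0.134), and the Gpt2 call without GR-cKO replicate 1 or 3 or control replicate 2 (0.0989 to 0.118). The Slc25a10 call ended without GR-cKO replicate 1 or control replicate 1 or 2 (0.0546 to 0.136). With ERCC scaling neither Acat1 (adjusted p = 0.0665) nor Slc25a10 (0.0534) passed, so none of the 40 fell. The lowest and highest adjusted p over all alternatives were 0.000105 and 0.0665 for Acat1 and 0.00625 and 0.136 for Slc25a10.

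**Figure D5:**
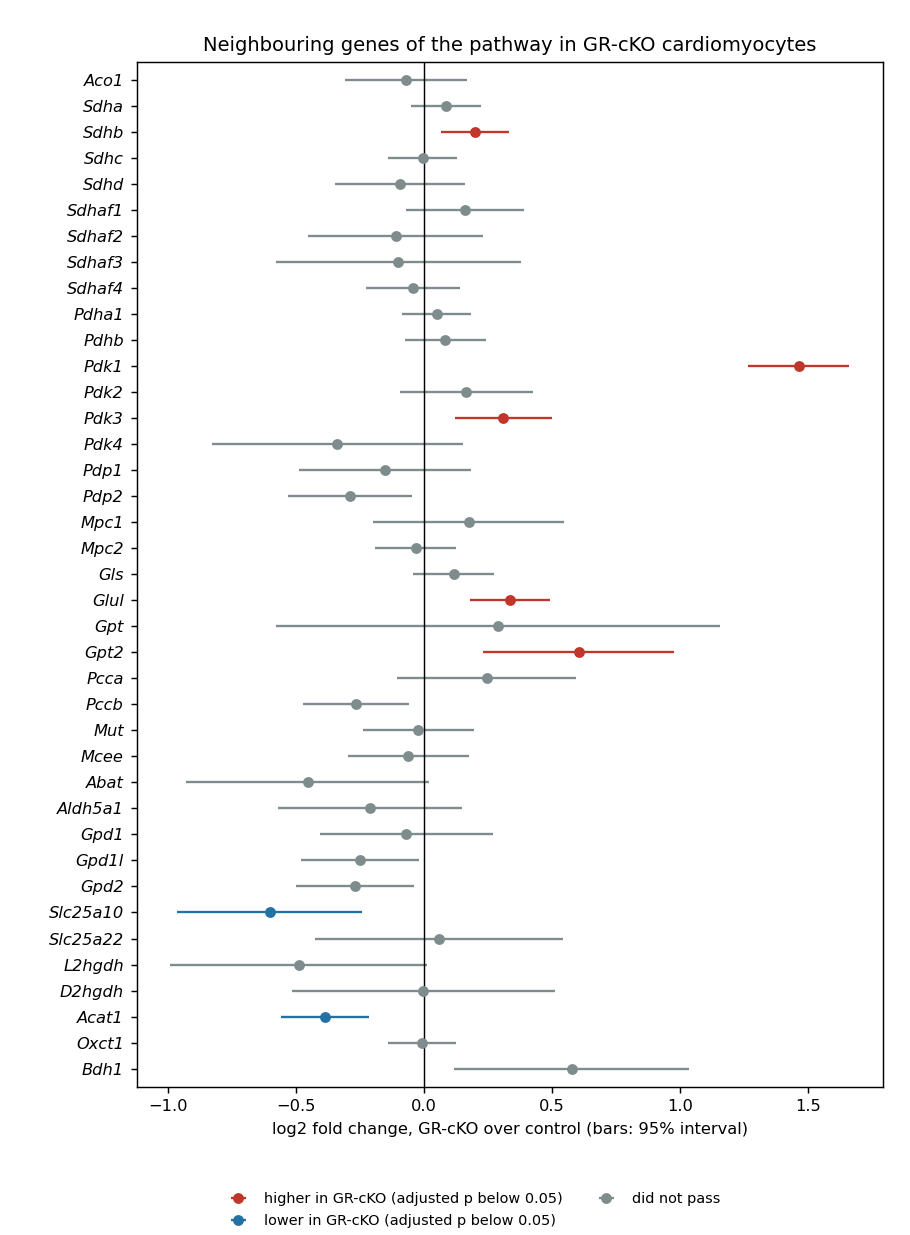
Log2 fold change, GR-cKO over control, of 39 tested neighbouring genes of the pathway with 95% intervals. Pdk1, Pdk3, Glul, Gpt2 and Sdhb (red) rose and Acat1 and Slc25a10 (blue) fell, and the 32 grey points did not pass.

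The libraries held between 19371508 and 22583596 gene counts, and the 30 genes between 115 and 29253 counts in a library. Nr3c1, the targeted gene, was at 46.2, 42.8 and 44.1 CPM in GR-cKO and 68.2, 73.9 and 72.4 CPM in control. It was called lower (log2 fold change -0.69 ± 0.09, SE, n = 3 each; edgeR, adjusted p = 3.30e-06). A 3′ tag need not report a deletion elsewhere in the gene. Cardiomyocyte markers dominated every library, with 8 markers summing to 28515 to 29166 CPM in GR-cKO and 22777 to 23659 CPM in control, of which 5 rose and 0 fell. The summed markers of fibroblasts, endothelium, smooth muscle with pericytes, and leukocytes were also higher in GR-cKO, but not every marker was. The 8 fibroblast markers summed to 4721 to 4840 CPM in GR-cKO and 3609 to 3813 CPM in control. Of the fibroblast markers 4 rose and 1, Dcn, fell (log2 fold change -0.37, edgeR adjusted p = 0.00024). The sum of 8 endothelial markers was 1140.4 to 1223 CPM in GR-cKO and 908 to 938 CPM in control, and that of 6 smooth muscle and pericyte markers 4196 to 4414 CPM in GR-cKO and 3585 to 3694 CPM in control. Of the endothelial markers 6 rose and 1, Emcn, fell (-0.64, edgeR adjusted p = 2.41e-07), and 4 of the smooth muscle and pericyte markers rose and 0 fell. Acta2 made up most of the smooth muscle and pericyte sum, with means of 3835 CPM in GR-cKO and 3294 CPM in control. Myh11 and Tagln of that list leaned lower in GR-cKO and did not pass. The sum of 6 leukocyte markers was 33.5 to 52.1 CPM in GR-cKO and 11.7 to 16.2 CPM in control, and 2 of the 3 that could be tested rose. The leukocyte marker Ptprc was at 0.0904 to 1.03 CPM in GR-cKO and 0 to 0.0469 CPM in control. The 4 erythroid markers summed to 2.58 to 4.48 CPM in GR-cKO and 1.17 to 3.02 CPM in control, and these ranges overlap. In bulk RNA, fewer cells of a type and less RNA per cell cannot be told apart, and the part of these shifts in the results above was not tested. Xist, expressed from the inactive X of females, was at 0 to 0.0996 CPM in GR-cKO and 271 to 293 CPM in control, and the Y-linked Ddx3y at 86.4 to 94.7 CPM in GR-cKO and 18.3 to 21.3 CPM in control, so sex makeup and genotype cannot be told apart, also for the X-linked Idh3g, Pdk3 and Pdha1.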

How the data were processed

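RNA from 3 GR-cKO and 3 control libraries (groups and replicate numbers from the sample titles) was made into QuantSeq 3′ forward libraries, per the labels' protocols. The authors deposited raw counts per gene, 1 table per library. The submitters' processing notes name STAR 2.5.4a, featureCounts 1.6.2, cutadapt 1.16, bcl2fastq, DESeq2 1.18.1, MultiQC 1.5 and FastQC 0.11.7, and the build GRCm38. Neither the strand setting nor how multi-mapping reads were handled is given in the sources used here. Spike-in rows (99 of 52649, 1.98% to 2.36% of all counts) stayed out of library sizes and tests.

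Identifiers were matched to GENCODE M21 (GRCm38). GR-cKO was tested against control with edgeR 4.0.16 (quasi-likelihood, TMM factors, default filter on low counts, R 4.3.3), with Benjamini-Hochberg adjustment over 14386 genes and a threshold of 0.05. The fitting code was also run on simulated counts, and no result here rests on that run. Fold changes are log2 with SE and 95% intervals derived from the F statistic. Log2 ratios of pairs used CPM plus 0.5 and exact two-sided permutation tests (scipy 1.17.1), adjusted over 6 pairs. The labels call the libraries biological replicates without saying whether animals or cultures were separate, so p-values reflect how these libraries vary, which may be technical. No pair of libraries within a group looked like a repeat deposit: the median chi-square per gene was 2.47 to 3.71. Transcript ends were compared over 400 bases with BLAST 2.17.0 for copies of at least 95% identity over 100 bases. Besides Pck2, Glud1 and Suclg2 each have such a pseudogene, with 0 and 3 counts in all libraries together.

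The genes, the neighbouring genes and the rule for naming them (all 30, with every library for those called, the 4 with the next smallest p and the 2 most abundant, then every neighbouring gene called) were chosen with earlier results of these data known. Alternatives were RLE factors, no filter, ERCC scaling, DESeq2 1.42.0, a replicate block and leaving out each library. For the pair ratios they were RLE factors, ERCC scaling, no pseudocount and leaving out each library. The neighbouring genes include 1 that is counted but not reported here.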

Additional observations from a re-analysis of the deposited data

How the results depend on the processing

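The calls of Acly, Idh1 and Pck2 held under all 11 alternatives, and no value of a named gene that was called under any setting changed direction. Among the 30 genes 4 were called under RLE factors, no filter on low counts, DESeq2 and the replicate block, 3 with ERCC scaling, and 3 to 5 when a library was left out, with 1 to 2 higher. Among the neighbouring genes 7 were called under the first group of settings and 5 with ERCC scaling, where 0 were lower. Leaving out a library gave 4 to 6 calls there, 3 to 4 higher and 1 to 2 lower. Over all genes, ERCC scaling called 1355 higher and 522 lower, against 1097 higher and 1035 lower with TMM, and the cause was not tested. The median log2 fold change with ERCC scaling was 0.07 for the 30 genes and 0.09 for all genes. Leaving out a library gave 1572 to 1879 calls over all genes. Same-numbered libraries showed little joint deviation (correlations 0.00, 0.04 and 0.02). With 3 libraries per group this cannot decide whether the numbers pair the samples, and the labels do not say what a number marks. With the replicate block 2353 genes were called, against 2132 without it. The pair differences moved by less than 1 SD under their alternatives. Pcx, Me2 and Me3 had the fewest counts and the widest intervals of the 30 genes, and the cause of that width was not tested.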
